A study of Mus musculus with 8 samples.

Results

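The 9 genes described here make, remove and sense retinoic acid, and they were examined through the open chromatin around them in mouse embryonic stem cell-derived cardiac progenitors. A peak was a member when its summit had Aldh1a2, Rdh10, Dhrs3, Cyp26a1, Cyp26b1, Cyp26c1, Rara, Rarb or Rarg as its nearest protein-coding gene within 100 kb. This gave 221 of the 172983 peaks in 3 peak lists. All 9 genes had peaks in at least 1 list. The rule uses position alone, not fold or presence in a list, but the genes were picked with earlier results of these data known. The farthest members lay 90.6 kb from Rarb with GLI1 (fold 11.9), 94.1 kb from Cyp26b1 in D7 control (fold 3.42) and 90.6 kb from Rarb at D5 (fold 9.14). Just outside, the nearest peak lay 140 kb from Cyp26b1 in both D7 lists, with folds of 3.86 with GLI1 and 5.40 in D7 control.

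ATAC-seq maps open chromatin by where the Tn5 transposase can insert sequencing adapters. The 3 groups were cells at day 7 (D7) with GLI1 overexpression, from 500 ng/ml doxycycline for 48 hours starting at D5; untreated D7 cells; and untreated cells at day 5 (D5). All are cells of the line GLI1-FTA, with A2Lox.cre given as strain. The groups have 3, 3 and 2 libraries, and each is represented by 1 pooled peak list, so no difference below has a replicate check and no p-value is given. The list named control was taken as that of D7, an inference from its name and from D5 having a list of its own. No untreated group received doxycycline, so an effect of the drug cannot be told apart from that of GLI1.

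Retinol is oxidised to retinaldehyde by RDH10, and retinaldehyde to retinoic acid by ALDH1A2, while DHRS3 turns retinaldehyde back into retinol. Enzymes of the CYP26 family break retinoic acid down. The receptors RARA, RARB and RARG pair with RXR partners and bind direct repeats of a short hexamer in DNA. In the embryo, retinoic acid from mesoderm limits the second heart field and shapes the inflow part of the heart, and CYP26 enzymes keep other tissues free of it.

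A pair of the genes carry a direct repeat of this form in the promoter itself. The search was for the hexamer AGGTCA and its variants AGTTCA, then GGTTCA and also GGGTCA, on both strands, repeated in the same direction with 5 bases between. It found a match in 12 of 20488 promoter windows of protein-coding genes (0.0586%), each window running from 250 bases before a start to 50 after. Of these 12, 2 belong to Rarb and Cyp26a1, among 14 windows that cover 8 of the 9 genes. Both are shown because they hold the repeat, and accessible regions lie over it in every list. They are given 5′ to 3′ on the gene's own strand, from RefSeq sequence of GRCm38.p6, as the 250 bases before the start, with the repeat in capitals. The first is chr14:16575477-16575726, minus strand, and the second is chr19:37697558-37697807, plus strand, where the repeat reads on the opposite strand.
Rarb: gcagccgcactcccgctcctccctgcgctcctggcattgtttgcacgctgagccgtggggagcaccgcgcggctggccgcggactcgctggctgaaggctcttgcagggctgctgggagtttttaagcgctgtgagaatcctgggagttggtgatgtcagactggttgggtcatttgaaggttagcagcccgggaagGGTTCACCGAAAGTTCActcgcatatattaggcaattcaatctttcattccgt
Cyp26a1: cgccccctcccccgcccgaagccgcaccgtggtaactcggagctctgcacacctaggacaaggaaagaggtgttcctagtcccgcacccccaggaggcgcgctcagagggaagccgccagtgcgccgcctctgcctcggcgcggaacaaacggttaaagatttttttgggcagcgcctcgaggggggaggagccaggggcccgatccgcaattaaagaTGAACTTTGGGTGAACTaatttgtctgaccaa

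The Rarb repeat spans bases −53 to −37 from the start, and the Cyp26a1 repeat bases −32 to −16. The same hexamers with spacers of 1 and 2 bases occur in 0.185% and 0.0927% of all windows. The sequence GACCACCCA, which GLI factors bind, occurs in 0.181%. None of these 3 was found in the 14 windows. These are matches of letters in short windows and not measured binding. The genes were chosen for their part in retinoic acid handling, and the Rarb repeat is a textbook one. The share of their windows with the spacer of 5 is therefore no measure of enrichment.

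The peak lists held 65318 peaks for D7 GLI1 OE, 59488 for D7 control and 48177 for D5 control. Merging of overlapping peaks left 43043, 38771 and 39436 regions. The values of a peak are the authors' fold over background. In the D7 lists every fold was a whole multiple of 1 step (to within 0.02 steps), which gave a background of 4.70 reads per base with GLI1 and 4.56 in control, and let each summit be read as a number of overlapping reads. The lowest peak of either D7 list had 13 reads at its summit. The D5 folds follow no such step, so their reads could not be recovered, their scale differs, and a comparison with D5 mixes time with peak calling. All 11 cardiac progenitor markers had at least 1 region in every list, with 43 regions with GLI1, 46 in D7 control and 61 at D5. Markers of other cell types were open too. Their regions numbered 33, 15 and 26 at 5 endoderm genes, 22, 22 and 17 at 6 pluripotency genes, and 23, 22 and 16 at 5 neural genes in the same order of lists. They numbered 17, 11 and 18 at 5 endothelial genes and 19, 20 and 10 at 5 paraxial mesoderm genes. The pluripotency gene Pou5f1, the endothelial gene Etv2 and the paraxial gene Tbx6 had no region in D7 control. The part of such cells in the results below was not tested.

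The retinoid genes held 94 peaks in 51 regions with GLI1, 85 peaks in 52 regions in D7 control, and 42 peaks in 36 regions at D5. The receptors took most of them. Rara had 17 regions with GLI1, 18 in D7 control and 5 at D5. Rarb had 12, 10 and 14 regions in the same lists, over a gene of 651 kb. Cyp26b1 had 6, 8 and 3 regions, and Rarg had 6, 4 and 4. The enzymes Aldh1a2, Rdh10, Dhrs3, Cyp26a1 and Cyp26c1 had at most 4 regions in any list, and Cyp26c1 had none at D5. Rdh10 had none with GLI1, where its 3 peaks lay in a region counted at the neighbouring gene Rpl7.

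**Figure D1:**
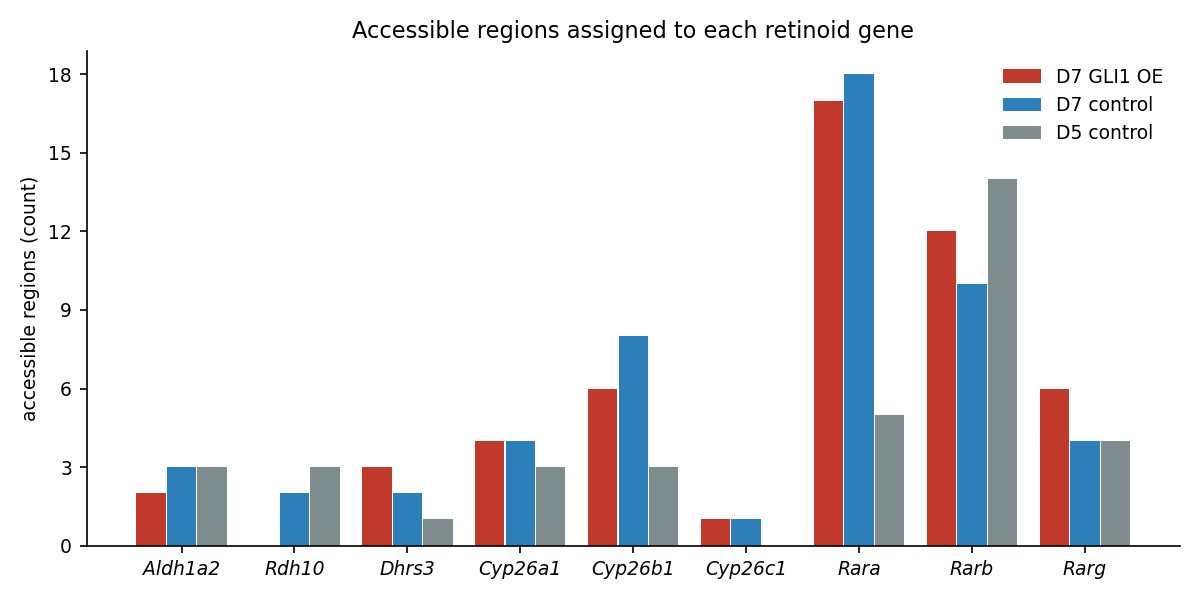
Number of accessible regions (vertical axis, count) assigned to each of the 9 genes (horizontal axis) in the D7 GLI1 OE, D7 control and D5 control lists. Rara has 17, 18 and 5 regions, whereas Rarb has 12, 10 and 14, the highest count being at D5. Rdh10 has no region with GLI1 because its 3 peaks there lie in a region counted at Rpl7.

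Setting the D7 lists side by side asks whether induction of GLI1, a transcription factor of the Hedgehog pathway, came with changed open chromatin at these genes. By count the intervals of the shares took in the values of the whole genome. Regions of the GLI1 list without a control region (gained) numbered 25 of 51, or 49.0% (Wilson 95% interval 35.9 to 62.3), beside 36.8% of all regions within 100 kb of a gene. Control regions without a GLI1 region (lost) numbered 21 of 52, or 40.4% (28.2 to 53.9), beside 29.2% of all. These intervals cover counting error only, and regions of 1 gene are not independent. Gained exceeded lost regions at Rarg (4 and 1), Rara (6 and 4), Rarb (8 and 7) and Dhrs3 (2 and 1). Lost exceeded gained at Aldh1a2 (1 gained, 2 lost), Cyp26b1 (1 and 2) and Rdh10 (0 and 1), and counts were equal at Cyp26a1 (2 and 2) and Cyp26c1 (1 and 1). By role, the receptors had 18 gained of 35 GLI1 regions and 12 lost of 32 control regions. The breakdown enzymes had 4 of 11 and 5 of 13, and the synthesis enzymes Aldh1a2 and Rdh10 together 1 of 2 and 3 of 5. Over all regions within 100 kb of a gene, 14421 were gained and 10322 lost, so more gained than lost is not particular to the receptors. The nets of single genes are small. With a −log10 q of at least 5 required, gained minus lost turned to −2 at Rarb and to 1 at Cyp26b1. Within 25 kb of a gene it turned to 1 at Aldh1a2 and Cyp26b1. With a larger overlap required it fell to 0 at Rara, and with equal list lengths to 0 at Rarb.

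Most of these regions were weak, as were gained and lost regions at large. The median fold of the 25 gained regions was 3.69, beside 3.86 over all gained regions, and that of the 21 lost regions 3.60, beside 3.96 over all lost regions. For 15 gained and 12 lost regions (60.0% and 57.1%, beside 53.4% and 56.3% of all gained and lost regions), the 95% Poisson interval of the summit reads reached down to 13, the lowest peak of the other list. The reads of the other list at these sites are not known. Whether presence in 1 list was there a difference beyond counting error therefore cannot be told. Strong regions are those with a fold of 5.04 or more with GLI1, or 4.91 or more in D7 control, which is 2 times the lowest peak of the opposite list. By that rule 3 gained regions (5.88% of 51, beside 8.36% of all) and 4 lost regions (7.69% of 52, beside 7.01% of all) were strong, shares near those of the genome. The 3 gained ones lay in receptor genes, 1 in Rara and 2 in Rarg. Of the 4 lost ones, 3 lay in Rarb and 1 beyond Aldh1a2. At D5, 2 of these 4 were already open, where 9.69% of all strong lost regions were.

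**Figure D2:**
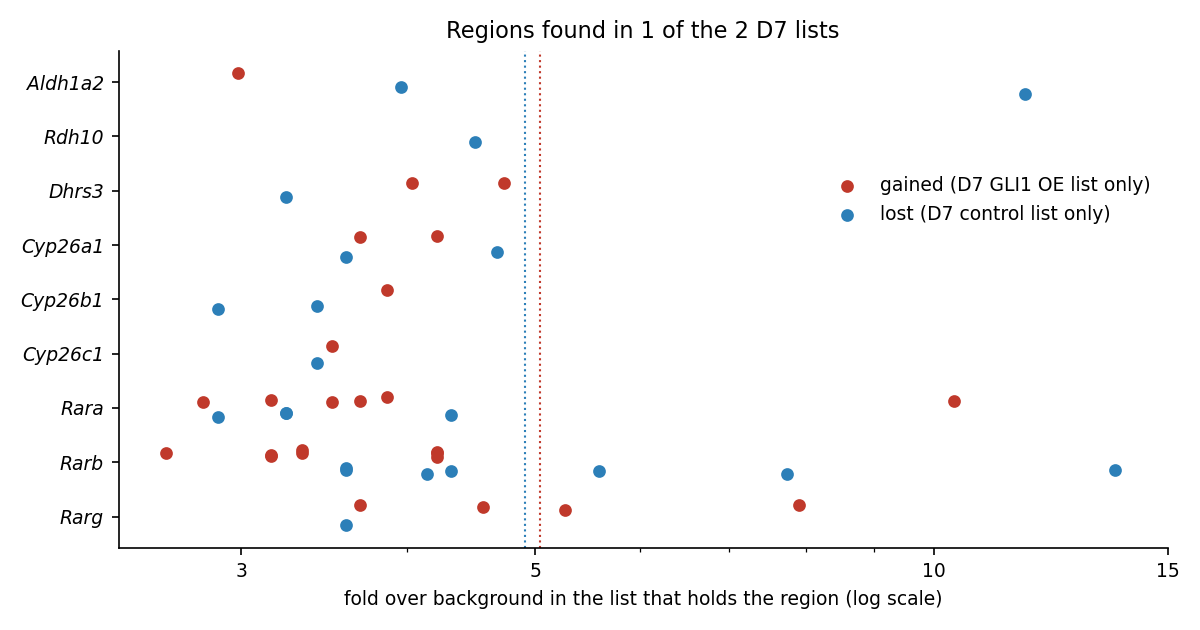
Each point is a region found in 1 of the 2 D7 lists, placed by its fold over background (horizontal log axis) and its gene (vertical axis), with gained regions above lost ones. Dotted lines mark the folds from which a gained (5.04) or a lost (4.91) region was called strong. The points to the right of the lines are 3 gained regions at Rara and Rarg and 4 lost regions at Aldh1a2 and Rarb.

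Aldh1a2 encodes the main retinoic acid-forming enzyme of the early embryo and lies at chromosome 9, 71215789 to 71296243 (mm10). Its promoter was open in all lists, with a fold of 9.13 with GLI1, 6.66 in D7 control and 6.97 at D5. The summits held 51 reads with GLI1 (95% interval 38.0 to 67.1) and 36 in control (25.2 to 49.8), and these intervals overlap. The strong lost region, 71326053 to 71326724, lay 30.2 kb past the end of the gene and had 64 reads (49.3 to 81.7) and a fold of 11.7 in D7 control. It was absent from the GLI1 and D5 lists. The other lost region at 71340297 to 71340542 had a fold of 3.96, and the gained region at 71216490 to 71216708 had 2.98.

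Inside Aldh1a2, 2 regions were found at D5 and in neither D7 list, at 71229990 to 71230324 (fold 5.32) and 71231929 to 71232274 (fold 6.22).

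Rdh10, at chromosome 1, 16105882 to 16132550, lies next to the ribosomal protein gene Rpl7, and 1 open region takes in peaks of both. With GLI1, the strongest summit of that region, with a fold of 45.3, was nearest Rpl7, so the region as a whole was not counted at Rdh10. In D7 control the strongest summit, with a fold of 44.3, was nearest Rdh10. Taking only those summits of that region that were nearest Rdh10, the highest fold was 39.0 with GLI1, 44.3 in D7 control and 3.39 at D5. The highest D5 fold over the whole region was 6.31. The remaining D7 region, 45.2 kb past the gene at 16177637 to 16177836, was in control alone with a fold of 4.50. At D5, regions at 16128337 to 16128486 (fold 4.18) and 16136457 to 16137006 (fold 8.63) were in neither D7 list.

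Dhrs3, at chromosome 4, 144892534 to 144928209, is nested within the interval of Vps13d, so summits beyond its own ends fall to that gene. Its promoter region had a fold of 12.5 with GLI1, 9.36 in D7 control and 5.28 at D5, with 70 reads (54.6 to 88.4) against 51 (38.0 to 67.1) at D7. A pair of gained regions followed within the gene, at 144893540 to 144893869 (fold 4.74, 26 reads) and 144894042 to 144895317 (fold 4.04, 22 reads, 5 summits over 1276 bp). Neither was strong. The lost region at 144924005 to 144924204 had a fold of 3.24.

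Cyp26a1 and Cyp26c1 lie side by side on chromosome 19, at 37697738 to 37701536 and 37685112 to 37693320. Between them, 1.80 kb from Cyp26a1, the stretch 37695357 to 37696389 reached 13.0-fold with GLI1 and 7.74 in D7 control, and no D5 region. The 73 reads with GLI1 (57.2 to 91.8) exceeded the 42 in control (30.3 to 56.8), with intervals that just missed each other. Over the Cyp26a1 promoter with its direct repeat, the fold was 6.32 with GLI1, 5.76 in D7 control and 4.67 at D5. The summits held 35 and 31 reads at D7, a difference within counting error. The summits carrying these folds lay 145 bases after the centre of the repeat with GLI1, 134 after it in D7 control and 130 after it at D5. With GLI1 a weaker summit (fold 4.74) lay 116 bases before it.

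The other Cyp26a1 regions were weak or of 1 day. Gained regions at 37696418 to 37696862 and 37704159 to 37704456 had folds of 4.21 and 3.69, and lost regions at 37698772 to 37699003 and 37757531 to 37757736 had 4.68 and 3.60. A pair of regions 14.8 and 17.8 kb past the gene, with folds of 6.45 and 6.29 at D5, was in neither D7 list. Cyp26c1 had 1 region in each D7 list and none at D5. These were a gained one inside the gene (fold 3.51, 19 reads) and a lost one 1.37 kb from it (fold 3.42, 18 reads). Its promoter window was covered in no list.

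Cyp26b1, at chromosome 6, 84571414 to 84593908, held the shared site with the largest ratio among the 9 genes. That site, at 84562757 to 84563809 and 8.25 kb past the end of the gene (30.6 kb from its start), had a fold of 27.2 with GLI1 and 10.1 in D7 control, a ratio of 2.70, and no D5 region. Its summit held 154 reads with GLI1 (131 to 180) against 55 in control (41.4 to 71.6). The ratio exceeded that of 98.6% of all shared loci. The other 4 shared loci of Cyp26b1 lay 3.35 to 10.3 kb inside the gene from its start. Each had a higher fold with GLI1, by 1.18 to 1.87 times, with overlapping read intervals at every one.

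At 84588370 to 84589248, for example, the fold was 8.07 with GLI1, 4.32 in D7 control and 3.81 at D5, from 45 reads (32.8 to 60.2) against 23 (14.6 to 34.5) at D7. At 84590320 to 84590586 it was 7.72 with GLI1 and 5.58 in D7 control. The gained region at 84573963 to 84574350 had a fold of 3.86, and the lost ones at 84477205 to 84477447 and 84544019 to 84544282 had 3.42 and 2.88. The promoter window of Cyp26b1 was covered in no list.

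Rara, at chromosome 11, 98927800 to 98974942, showed the opposite change at its strongest control site. That site, at 98925145 to 98926717 and 1.81 kb before the gene interval, had a fold of 21.9 with GLI1, 46.6 in D7 control and 7.97 at D5. Its 124 reads with GLI1 (103 to 148) lay below the 258 in control (227 to 291). The ratio of 0.47 was at the 5.57th percentile of all shared loci. The site lies between Rara and Cdc6, a DNA replication gene, and nearness does not show which gene it serves. Over the Rara promoter itself (98935956 to 98938901) the fold was 43.7 with GLI1, 38.0 in D7 control and 10.1 at D5, with 248 reads (218 to 281) against 210 (183 to 240).

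Inside Rara, the strong gained region at 98953461 to 98953793, 15.9 kb from the promoter start, had a fold of 10.4 and 58 reads (44.0 to 75.0) with GLI1 and was in neither control list. It lay next to a shared locus at 98953942 to 98955501, with 12.6 with GLI1 and 8.64 in D7 control. The other 5 gained regions had folds from 2.81 to 3.86, and 4 of these lay between 26.7 and 28.2 kb from the start. The 4 lost regions had folds from 2.88 to 4.32. Of the 9 shared loci of Rara, 5 had a higher and 4 a lower fold with GLI1, and the 8 inside the gene differed by 0.79 to 1.78 times with overlapping intervals.

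**Figure D3:**
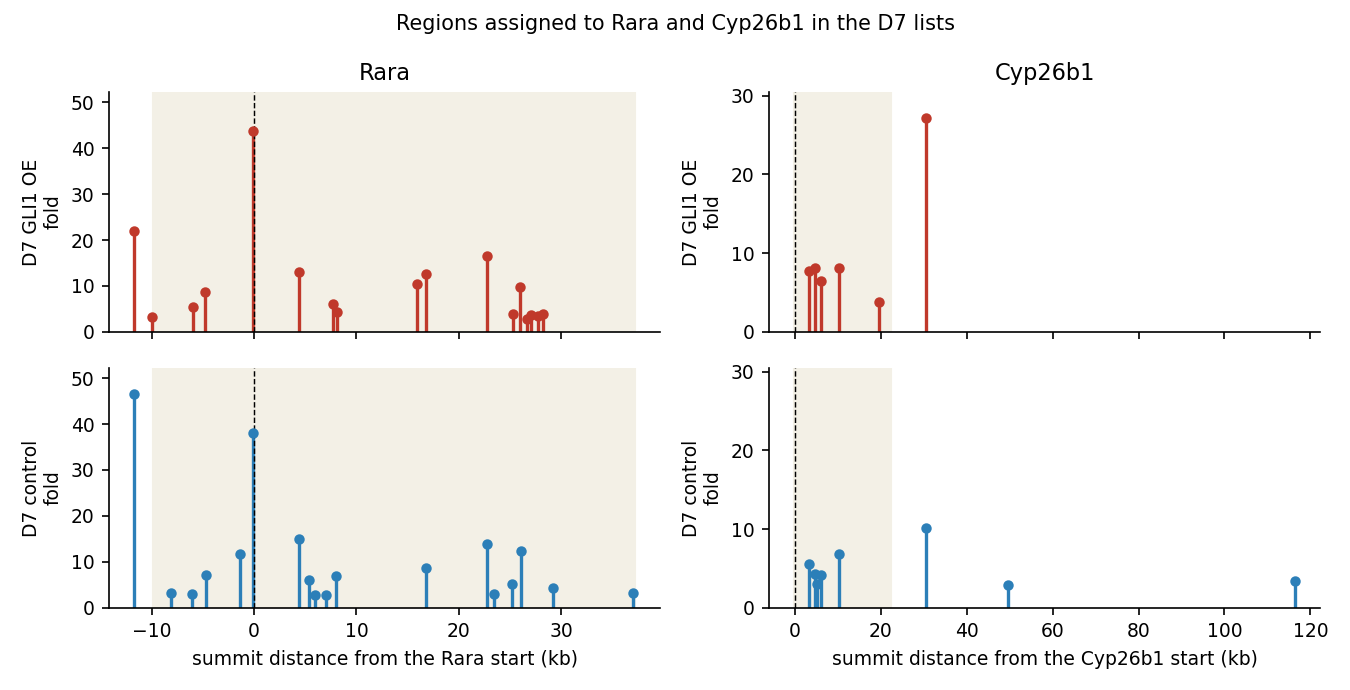
Fold over background (vertical axes) of each region assigned to Rara (left) and Cyp26b1 (right), by the distance of its summit from the promoter start in kb (horizontal axes, positive in the direction of transcription). Upper panels show D7 GLI1 OE and lower panels D7 control, with the gene interval shaded and the start dashed. The left-most Rara site stands at 21.9 with GLI1 and 46.6 in control, and the Cyp26b1 site past the gene at 27.2 and 10.1.

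Rarb, at chromosome 14, 16430839 to 17082331, encodes a receptor whose own gene is a textbook target of retinoic acid through the repeat printed above. The promoter was open in every list, with a fold of 8.78 with GLI1, 8.10 in D7 control and 10.1 at D5, and 49 reads (36.3 to 64.8) against 44 (32.0 to 59.1) at D7. The repeat lay under the region in all 3 lists, with the summits 93, 65 and 86 bases before its centre. The D7 difference there was within counting error. Elsewhere in the gene, 3 strong regions of D7 control were absent with GLI1.

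The strongest of these lost regions, at 16554440 to 16555491 and 20.7 kb into the gene from the promoter start, had a fold of 13.7 and 75 reads (59.0 to 94.0) in D7 control, the highest fold of Rarb in that list. It was absent at D5. The next, at 16603257 to 16603598, lay 27.9 kb before the start and had 7.74 in D7 control (42 reads, 30.3 to 56.8) and 5.83 at D5. The last, at 16695540 to 16695993 and 120 kb before the start, had 5.58 in D7 control (30 reads, 20.2 to 42.8) and 12.4 at D5. All 3 read intervals lay above 13, the lowest peak of the GLI1 list.

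A weaker lost region at 16598011 to 16598339, 22.8 kb before the start, had 3.60 in D7 control and 10.8 at D5, and another at 16434511 to 16434710 had 4.32 and 4.39. With the 2 stronger ones above, 4 D5 regions of Rarb were therefore in D7 control and absent with GLI1. These were the only such regions of the 9 genes, 4 of 36 D5 regions or 11.1% (4.41 to 25.3), beside 2.84% of all D5 regions. All 4 sit in 1 gene and are not independent. The opposite case, a D5 region in the GLI1 list and absent from D7 control, was found at 0 of 36 D5 regions, which allows a share of up to 8.33% (3 counts of 36, not a Wilson limit), beside 6.15% of all.

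The 8 gained regions of Rarb had folds from 2.63 to 4.21, none strong and none in the D5 list. Of its 3 shared loci, that at 16964734 to 16965758, 390 kb before the promoter start, had 13.3 with GLI1 and 8.28 in D7 control. That 90.6 kb beyond the interval, at 17172330 to 17173111, had 67 reads with GLI1 (51.9 to 85.1) and 49 in D7 control (36.3 to 64.8), and was open at D5 with a fold of 9.14. The read intervals of each pair overlapped. A further 8 Rarb regions were found at D5 and in neither D7 list.

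**Figure D4:**
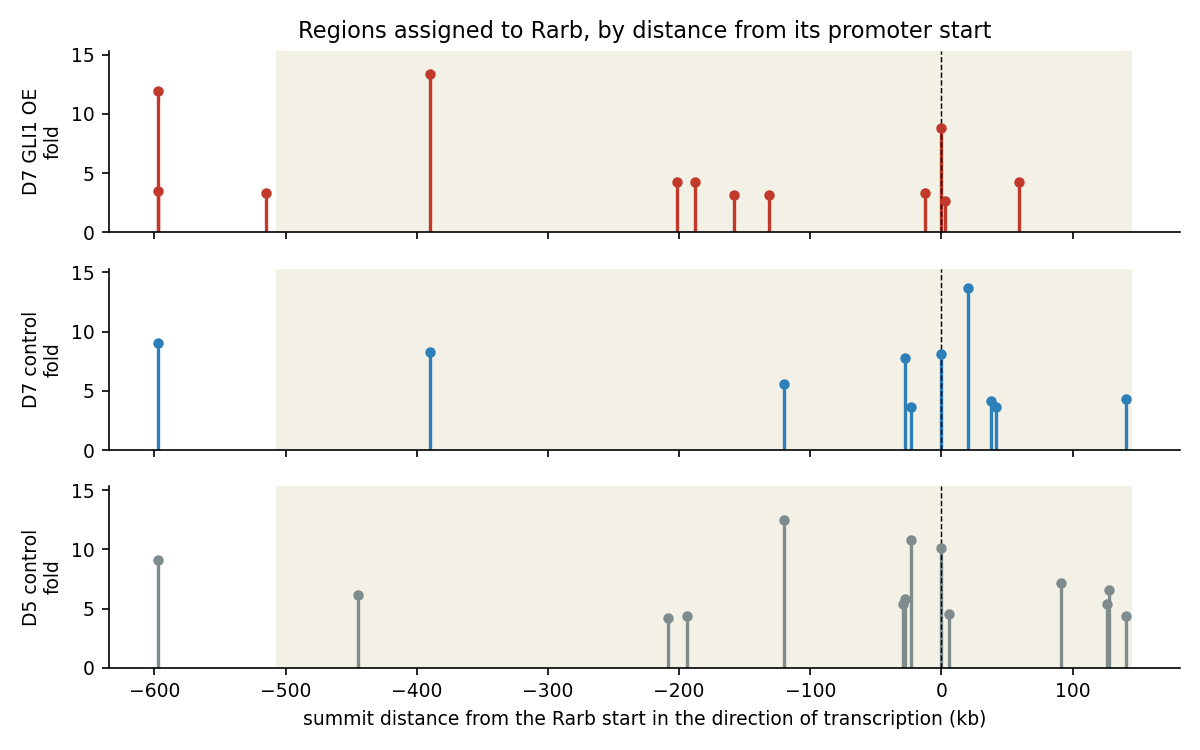
Fold over background (vertical axes) of each region assigned to Rarb in the D7 GLI1 OE, D7 control and D5 control lists (top to bottom), by summit distance from the promoter start in kb in the direction of transcription. The gene interval is shaded and the start dashed. The promoter is open in all 3 panels, while the control regions at 20.7, −27.9 and −120 kb have no counterpart with GLI1.

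Rarg, at chromosome 15, 102234938 to 102257522, held the highest fold of the 9 genes. A broad region inside the gene, 102245481 to 102250061, had 55.1 with GLI1, 53.1 in D7 control and 6.45 at D5. Its 313 reads with GLI1 (279 to 350) and 294 in control (261 to 330) were within counting error. This region spans the promoter window of an inner Rarg start, 102246451 to 102246750. At the outer promoter, 102257120 to 102258364, the fold was 10.5 with GLI1, 6.48 in D7 control and 4.23 at D5, with 59 reads (44.9 to 76.1) against 35 (24.4 to 48.7). The strong gained regions were 102234635 to 102235649, at the far end of the gene, with a fold of 7.90 and 44 reads (32.0 to 59.1), and 102255608 to 102255844, 1.79 kb inside it, with 5.27 and 29 reads (19.4 to 41.6). Gained regions at 102235776 to 102235975 and 102239305 to 102239518 had 3.69 and 4.56. The lost region at 102258419 to 102258650 had 3.60.

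The 23 loci of these genes present in both D7 lists include none of Rdh10 or Cyp26c1. The region at the Rdh10 start was in both D7 lists but was counted at Rpl7. Its folds were 45.3 with GLI1 and 44.3 in D7 control. Of the 23 loci, 19 had a higher fold with GLI1, or 82.6% beside 60.0% of all 23523 shared loci. The median ratio of GLI1 to control was 1.33, beside 1.07 over all. Few single loci had read intervals that lay apart. That rule is stricter than counting error of the difference, so overlapping intervals do not show equal reads. The interval with GLI1 lay above that in control at 2 of 23 loci, at Cyp26b1 and Cyp26a1, where 12.0% of all shared loci did. It lay below at 1, before Rara, where 7.58% of all did. A ratio of at least 2 was found at 1 locus (3.96% of all) and one of at most 0.5 at 1 locus (6.43% of all). With folds divided by the median ratio of all shared loci, 18 of 23 were higher with GLI1 and the median was 1.25.

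**Figure D5:**
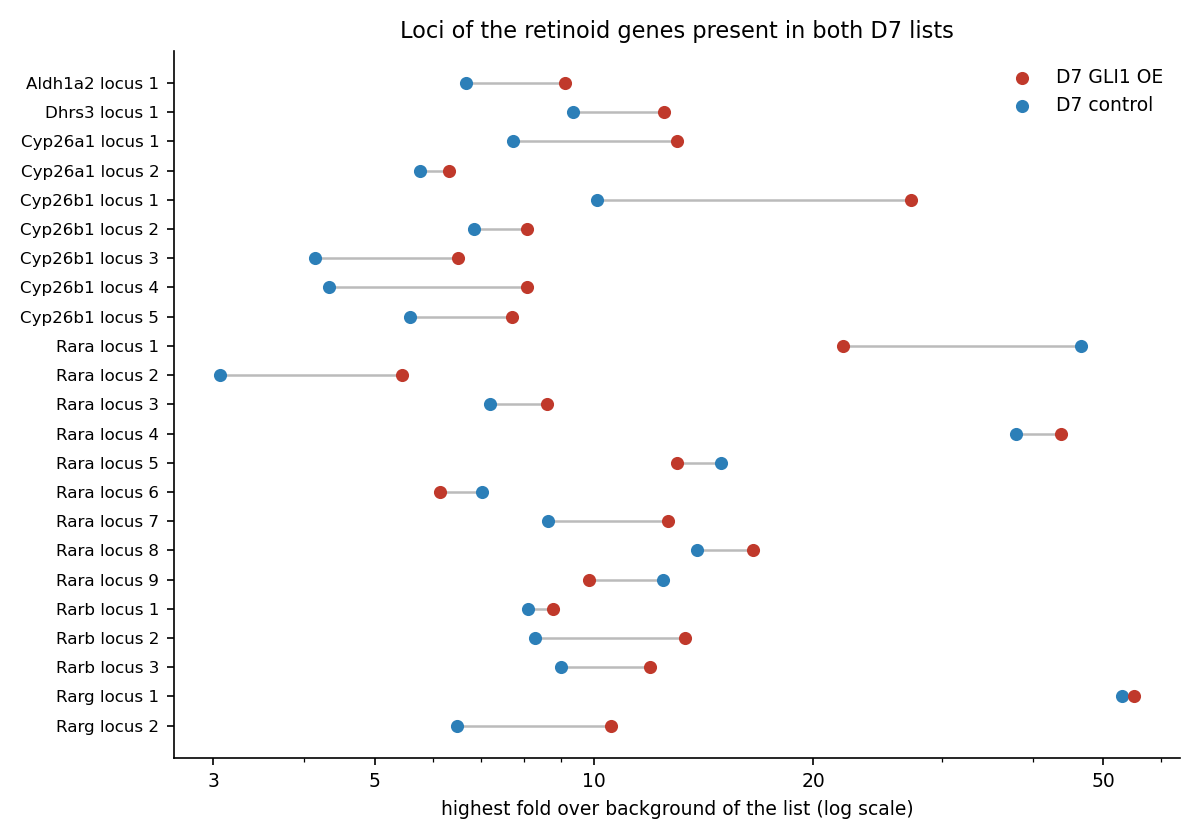
Highest fold over background (horizontal log axis) in D7 GLI1 OE and D7 control at each of the 23 loci present in both lists, numbered along the chromosome within each gene (vertical axis). The GLI1 point lies to the right at 19 loci, with the widest gap at the first Cyp26b1 locus (27.2 and 10.1), and to the left at 4 Rara loci, most at the first (21.9 and 46.6).

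The comparison of D7 with D5 control addressed how these genes changed with time without doxycycline. Of the 52 D7 control regions 34 had no D5 region (opened), or 65.4% (51.8 to 76.8) beside 52.6% of all. Of the 36 D5 regions 15 had no D7 control region (closed), or 41.7% (27.1 to 57.8) beside 45.1% of all. Rara alone gave 14 of the opened regions and 0 of the closed ones, and Cyp26b1 had 6 opened and 1 closed. Rarb went the other way, with 4 opened and 8 closed, as did Rdh10 with 1 and 2. Without Rara, 20 regions were opened in all, and without Rarb, 7 were closed.

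Against the same D5 list, the D7 GLI1 list had 38 opened regions of 51, or 74.5% (61.1 to 84.5) beside 54.8% of all, and 19 closed of 36, or 52.8% (37.0 to 68.0) beside 41.8%. Both comparisons share the D5 list. Rara had 13 opened and 0 closed with GLI1 and Rarb 10 and 12. The opened regions of Rarb include its 8 gained ones, none of them strong. The higher closed count with GLI1 than in D7 control came from the 4 Rarb regions described above.

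With all 3 lists merged, the genes had 84 loci. Of these, 25 were in the GLI1 list alone (29.8%, beside 20.2% of all 61697 loci), 17 in D7 control alone (20.2%, beside 15.3%) and 15 at D5 alone (17.9%, beside 21.9%). The loci in all 3 lists numbered 13 (15.5%, beside 25.5%) and those in both D7 lists and not at D5 numbered 10 (11.9%, beside 12.6%). Regions open in D7 control and at D5 but absent with GLI1 made 4 loci (4.76%, beside 1.43%), all at Rarb.

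Promoter windows were mostly open. Of the 14 windows of these genes, 11 were covered by a region with GLI1, 10 in D7 control and 8 at D5 (78.6%, 71.4% and 57.1%), beside 58.5%, 57.1% and 54.8% of all 20488. Windows of the same gene can overlap, as at Dhrs3 and Rara, so some promoters count repeatedly in these shares. The windows covered in D7 control and not at D5 were both of Dhrs3, from 144892827 and 144892887. The Dhrs3 window from 144892577 was covered in every list. The window covered with GLI1 alone was an inner Rara start at 98964622 to 98964921, under a gained region with a fold of 3.69 from 20 reads (12.2 to 30.9).

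Other genes of the retinoid pathway, 19 in all, had 35 gained of 96 GLI1 regions and 23 lost of 86 control regions (36.5% and 26.7%, beside 36.8% and 29.2% of all), with 8 genes having more gained and 4 more lost. Rxra, which encodes the common receptor partner, had 8 gained and 2 lost. Aldh1a1 and Aldh1a3, which encode the other retinaldehyde dehydrogenases, each had 2 gained and 0 lost, as did Fabp5, a carrier of fatty acids and retinoic acid. Between D5 and D7 control, Crabp2, a retinoic acid carrier, had 7 opened and 0 closed.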

How the data were processed

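Per the submitters' processing notes, reads were handled with Bowtie2 2.3.2, SAMtools 1.5, Picard and MACS2 2.1.1 on mm10; per the labels' protocols, 150000 cells were transposed for 30 minutes at 37 C. The authors deposited 1 peak list per group, so libraries were pooled. Each deposited peak has a fold over background (a ratio), a −log10 q and a score of 10 times the −log10 q. Overlapping peaks were merged into regions, placed by the summit with the highest −log10 q, and assigned to the nearest of 21031 protein-coding genes with a curated transcript (RefSeq intervals, GRCm38.p6). The annotation gives no exons, so exon or intron status is not stated. Regions sharing at least 1 base were counted as shared. D7 summit reads were taken as the fold divided by the step, minus 1 (background 4.70 and 4.56 reads per base). Intervals are Poisson for reads and Wilson for shares, at 95%, for counting error only. Library depths were not used here. Interval code was checked against bedtools 2.31.1 on simulated data, with Python 3.11.15 and pandas 2.3.3.

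All 9 genes are named whatever their values; of the 19 other pathway and 12 responsive genes, those with the largest absolute gained minus lost and opened minus closed counts are named, except a few that are not reported here. Members and gene lists were chosen with earlier results of these data known.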

Additional observations from a re-analysis of the deposited data

How the results depend on the processing

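No paired analysis was possible because the libraries of a group were pooled before peaks were called, which also means that leaving out a library gives no value. Requiring a −log10 q of at least 5 left 16 gained and 10 lost regions. All 3 strong gained and all 4 strong lost regions remained under this setting and with equal list lengths. Both settings drop only weak regions, which strong ones are not, so their staying is no check of them. Net gained minus lost changed sign at Aldh1a2 to 1 (within 25 kb, and with every gene within 25 kb), at Cyp26b1 to 1 (both of these, and the −log10 q setting) and at Rarb to −2 (the −log10 q setting). Net opened minus closed changed sign at Dhrs3 to −2 by the nearest gene end and to −1 with every gene within 25 kb. By the nearest gene end, 2 shared loci had a ratio of at most 0.5. Settings chosen after seeing the data were lists without 1 gene, regions placed by any of their peaks, and predicted gene models. Without Rara, opened regions numbered 20 in D7 control and 25 with GLI1; without Rarb, closed regions numbered 7 in each. Counts of gained, lost, opened and closed regions otherwise stayed within 1.5 times. Depth limits the weak regions, whose summits hold few reads more than the lowest peak.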

Other observations

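A list of 12 genes that respond to retinoic acid in embryos had 36 gained of 90 GLI1 regions and 23 lost of 78 D7 control regions (40.0% and 29.5%, beside 36.8% and 29.2% of all regions). Meis1, a homeobox gene, had 8 gained and 3 lost, and Cdx1 3 and 1, while Nr2f2, an orphan nuclear receptor gene, had 4 and 6. Between D5 and D7 control, Meis2 had 14 opened and 6 closed regions and Nr2f2 10 and 4. Tbx5, a cardiac transcription factor gene, had 2 opened and 5 closed. It was chosen after its values were seen. Stra8, a germ cell gene, had no region in any list. Of the 71 D5 regions of this list, 8 were kept with GLI1 and absent in D7 control (11.3%, beside 6.15% of all D5 regions), and 1 was kept in control and absent with GLI1 (1.41%, beside 2.84%).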
